A study of Mus musculus with 6 samples.

Results

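Potassium channel genes were compared between sorted muscle cells and sorted epithelial cells of the mouse trachea. Members were the rows of the deposited gene table whose symbols begin with Kcn followed by subgroup letters and a number, and 96 of 23478 rows met this rule. Of these, 93 are protein-coding genes in the GENCODE annotation and 3 are non-coding RNAs (Kcnq1ot1, Kcnd3os and Kcnmb4os1). The series concerns Wnt signalling and ion channel expression in the forming trachea, and the comparison asks which potassium channel genes differ between these tissues. RNA was sequenced from 3 libraries of muscle cells and 3 of epithelial cells at embryonic day 13.5. All 6 were controls of the genotype Bmp4 f/f; gamma SMA eGFP, so both populations carried Bmp4 with loxP sites and the reporter in which eGFP marks gamma smooth muscle actin (Actg2), and no library lacked them. Muscle cells were sorted by GFP, so the population is defined by the activity of that reporter, and epithelial cells by an APC-coupled antibody to the surface protein Epcam. Nothing in the labels says that the libraries of a group came from separate embryos, so p-values measure only the spread between these libraries, which may be technical.

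Potassium channels let potassium leave or enter the cell along its gradient and thereby set the resting membrane potential. In smooth muscle, opening them hyperpolarizes the membrane, closes voltage-gated calcium channels and favours relaxation, while in epithelia they sustain the driving force for ion and fluid transport. Voltage-gated (Kv), inwardly rectifying (Kir), tandem-pore-domain and calcium-activated channels have different pore-forming proteins, and many work with auxiliary subunits that form no pore of their own. The letters after Kcn name these subfamilies.

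The upstream sequences of 3 members are shown because they carry the results below. Kcns3 had the largest fold change among genes called higher in muscle, Kcnk1 was the most abundant channel of epithelium per length, and Kcne4 was the 1 of 11 genes with a RefSeq window and with non-overlapping, higher values in muscle whose window held the hexamer TCAAAG. Each line gives the 250 bases before the RefSeq start in the GRCm38.p6 build, 5′ to 3′ on the gene's strand, as chr12:11150843-11151092 (minus strand) for Kcns3, chr8:125994852-125995101 (plus strand) for Kcnk1 and chr1:78816661-78816910 (plus strand) for Kcne4. Capitals mark TCAAAG on either strand, and both matches in Kcne4 lie on the opposite strand and so read CTTTGA. GENCODE starts Kcns3 at 11151056 and Kcne4 at 78816758, so part of each of these 2 stretches lies inside the annotated gene. The second match in Kcne4 lies in that part. Of 2 RefSeq starts of Kcns3, the one nearest its GENCODE start is shown.
Kcns3: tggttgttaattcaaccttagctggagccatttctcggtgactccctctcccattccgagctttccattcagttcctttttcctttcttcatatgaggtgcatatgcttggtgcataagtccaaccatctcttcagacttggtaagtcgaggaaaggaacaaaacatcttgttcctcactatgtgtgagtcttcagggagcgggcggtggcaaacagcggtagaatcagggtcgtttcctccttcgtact
Kcnk1: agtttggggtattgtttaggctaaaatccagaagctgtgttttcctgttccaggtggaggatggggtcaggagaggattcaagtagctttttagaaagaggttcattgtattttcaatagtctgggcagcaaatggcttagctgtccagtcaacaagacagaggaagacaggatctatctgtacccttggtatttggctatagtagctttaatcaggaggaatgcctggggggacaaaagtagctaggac
Kcne4: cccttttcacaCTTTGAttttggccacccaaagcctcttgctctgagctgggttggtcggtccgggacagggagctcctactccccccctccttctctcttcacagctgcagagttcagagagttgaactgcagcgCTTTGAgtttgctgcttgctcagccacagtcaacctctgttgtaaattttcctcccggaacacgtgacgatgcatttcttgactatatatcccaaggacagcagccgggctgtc
The hexamer TCAAAG is the core letters bound by Tcf and Lef factors of the Wnt pathway, and the CArG box is the element bound by serum response factor, which drives contractile genes. RefSeq windows, 250 bases before to 50 after a start, were in the table for 70 of the 96 members. On both strands, TCAAAG was found in 7 of these 70 (10%) beside 18.2% of all 27025 genes in the table, and in 0 of the 7 called members with a window. No CArG box was found in the 70 members, beside 1.81% of all genes. These searches cover only the letters of these windows.

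Values are CPM, the counts of a gene relative to the library's size, with sizes scaled by the TMM method (trimmed mean of M-values). A gene was called when the adjusted p of edgeR's quasi-likelihood test, over all 19375 tested genes, was under 0.05. Total counts ranged from 11847432 to 54848820. Each sort gene went with its label: Actg2 was at 403 to 2786 CPM in muscle and 1.60 to 2.47 in epithelium, and Epcam at 0.646 to 2.20 and 541 to 710. In muscle replicate 2, all 12 smooth muscle markers examined were under 0.5 times the mean of the other muscle libraries. Counts in 1449 olfactory and vomeronasal receptor genes, genes of sensory neurons, summed to 871 CPM of the library total in muscle replicate 2 against 36.5 and 23.2 in the other 2, and to 6.47, 1792 and 627 in epithelium replicates 1 to 3. Low values of muscle replicate 2 and of epithelium replicates 2 and 3 are therefore read beside that background. Numbers in the identifier row of the table, read here as dates, set both libraries numbered 2 on an earlier date than the other 4. The headers do not call these numbers dates, and the table's own date row does not differ between the 6 libraries. Results are also given without the libraries numbered 2, a setting called the later date below. That setting also leaves out the library of each group with the fewest total counts and the highest receptor background. In bulk RNA, fewer cells of a type and less RNA per cell cannot be told apart. Summed markers of 12 neuronal genes were 43.9 to 109 CPM in muscle and 103 to 143 in epithelium (0 called higher in muscle, 1 in epithelium). For 8 glial genes the sums were 22.7 to 52.3 and 102 to 130 CPM (0 and 1 called). The called genes were Uchl1 (11.4 to 18.4 CPM in muscle, 47.4 to 81.6 in epithelium) and Erbb3 (8.62 to 16.1 and 65.4 to 118). Erbb3 alone held most of the glial sum in every epithelial library. Of 7 chondrocyte markers, summing to 752 to 1277 CPM in muscle and 232 to 491 in epithelium, 3 were called higher in muscle (Sox9, Col9a1 and Matn4). Of 7 skeletal muscle markers, summing to 161 to 788 CPM and 5.11 to 156, 1 was called higher in muscle (Acta1), and Myog was at 245, 1.2 and 17.3 CPM in muscle replicates 1 to 3. The part of such cells in the levels below was not tested.

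The 9 potassium channel genes called were 6 pore genes, 1 silent subunit and 2 auxiliary subunits, a share near that of all tested genes. A gene that was not called may still differ between the tissues. Of 92 members tested, 6 were higher in muscle (among them Kcns3, Kcnab1, Kcnk3, Kcna5 and Kcnh2) and 3 were higher in epithelium (Kcnk1, Kcnj13 and Kcne2). The share of all tested genes called was 6.58% higher in muscle and 4.11% higher in epithelium, 10.7% in all, so the members' count was near the background. Many members were low: 42 of the 92 reached an average log2 CPM of 2, and 8 of those 42 were called, beside 16.2% of all genes at that level. Of these 8, 6 were higher in muscle and 2 in epithelium, beside 10% and 6.22%. The median log2 fold change (muscle over epithelium) was -0.15 over the 92 members and -0.10 over all tested genes. In 14 members every muscle library lay above every epithelial one, and in 8 the reverse held, beside 16.4% and 10.5% of all tested genes (26.9% in all). With the 4 libraries of the later date alone, 14 members were called, beside 17.6% of all genes tested there. Of these, 11 were higher in muscle and 3 in epithelium, beside 10.7% and 6.93%. That fit called the same 9 genes and Kcnj8, Kcnmb1, Kcne4, Kcnj2 and Kcng1. Kcns3, Kcnab1, Kcna5 and Kcnk1 were past the threshold in all 17 refits with another normalization, filter, model or set of libraries.

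**Figure D1:**
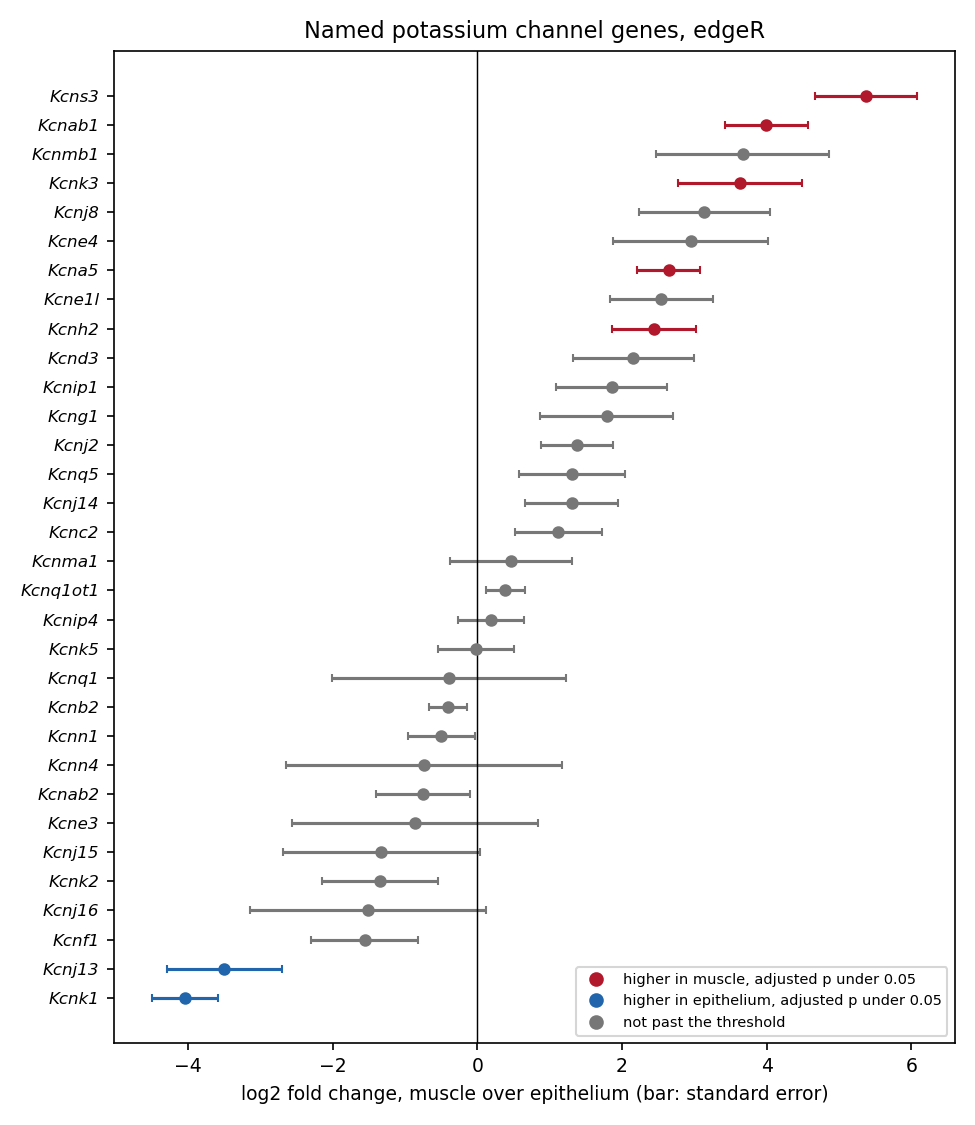
Log2 fold changes of muscle over epithelium for 32 members named by rule, from edgeR (points) with standard errors (bars). Kcne2 is left out because its muscle libraries held 2, 0 and 0 counts. Red points are called higher in muscle, blue points higher in epithelium, and grey points, among them Kcnmb1, Kcnj8 and Kcne4 at log2 values of 3.67, 3.14 and 2.95, were not past the threshold.

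Voltage-gated pore genes, which open on depolarization and repolarize the membrane, numbered 30. Of the 29 tested, 3 were called, all higher in muscle, beside 6.58% of all tested genes. Kcna5, a delayed rectifier of vascular and airway muscle (chr6:126532551-126535412 in GRCm38), measured 13.5, 27.0 and 32.9 CPM in muscle replicates 1 to 3 and 4.18, 4.88 and 2.67 CPM in epithelium replicates 1 to 3. The groups did not overlap, and the log2 fold change was 2.65 ± 0.43 (SE, n = 3 and 3, edgeR adjusted p = 0.0051). Its level in muscle replicate 2 lay between those of the other muscle libraries.

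Kcnh2 (chr5:24319589-24351604) encodes the ERG channel, best known for repolarizing heart muscle. It measured 89.0, 21.6 and 88.8 CPM in muscle and 7.45, 20.7 and 8.90 CPM in epithelium. Both libraries numbered 2 were nearly level for this gene, and the other 4 were well separated. The log2 fold change was 2.44 ± 0.58 (adjusted p = 0.028), against 3.37 on the later date (adjusted p = 6.0e-04). Without muscle replicate 1 or 3 its adjusted p was 0.10 each time, and without epithelium replicate 1 or 3 it was 0.095 and 0.13. It passed in 8 of 17 refits, and was also lost with library size only (0.073), the RLE scaling (0.050), the date as a term (0.076) and the receptor counts as a covariate (0.19).

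Other voltage-gated pore genes were present without a call. Kcnd3, an A-type channel gene, was at 13.1, 9.09 and 19.4 CPM in muscle and 0.446, 6.42 and 2.55 CPM in epithelium, without overlap (log2 fold change 2.16 ± 0.84, adjusted p = 0.16), and shares 165 bp of exon with the antisense Kcnd3os. Kcnb2, a delayed rectifier gene, was at 13.7 to 22.6 CPM in muscle and 22.4 to 26.5 in epithelium (-0.41 ± 0.27, adjusted p = 0.50). The groups of Kcnb2 overlapped by a narrow margin.
Kcnq5, of the KCNQ family that carries currents open near rest, was at 7.39 to 14.5 CPM in muscle and 1.04 to 8.76 in epithelium (1.31 ± 0.73, adjusted p = 0.38), and Kcnc2, a fast Shaw-type channel gene, at 9.62 to 18.4 and 2.30 to 11.9 (1.12 ± 0.60, adjusted p = 0.35). Kcnq1, which pairs with KCNE subunits in many epithelia, was at 0.152 to 2.25 CPM in muscle and 1.04 to 1.99 in epithelium (-0.39 ± 1.62, adjusted p = 0.96). In both groups at least 1 library held Kcnq1 at or under the 99th percentile of the receptor genes, which was 0.253 to 3.25 CPM in muscle and 0.113 to 5.55 in epithelium. It also shares 121 bp of exon with the antisense Kcnq1ot1, so its few reads cannot be assigned with certainty.

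Silent voltage-gated subunits form no channel alone and modify other voltage-gated channels when they assemble with them. Of 10 such genes, Kcns3 (chr12:11090202-11151056) was the 1 called, beside 10.7% of all tested genes. Its muscle libraries held 18.7, 20.6 and 21.5 CPM and its epithelial libraries 0.539, 0.0668 and 0.789 CPM. These muscle values were the most alike of the 6 genes called higher in muscle, and epithelium replicate 2, with the highest receptor background, had the lowest value. On the log2 scale the difference was 5.37 ± 0.70 (adjusted p = 0.0017), and 4.86 on the later date (adjusted p = 0.0018). Kcnb2, whose channel such subunits can join, was expressed in both tissues, as given above. Kcng1, another silent subunit, was at 10.7, 1.60 and 6.24 CPM in muscle and 1.47, 2.14 and 1.77 in epithelium (1.79 ± 0.92, adjusted p = 0.33). Kcnf1 was at 2.09, 3.00 and 5.92 CPM in muscle and 6.10, 21.7 and 4.66 CPM in epithelium, overlapping (-1.56 ± 0.74, adjusted p = 0.27).

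**Figure D2:**
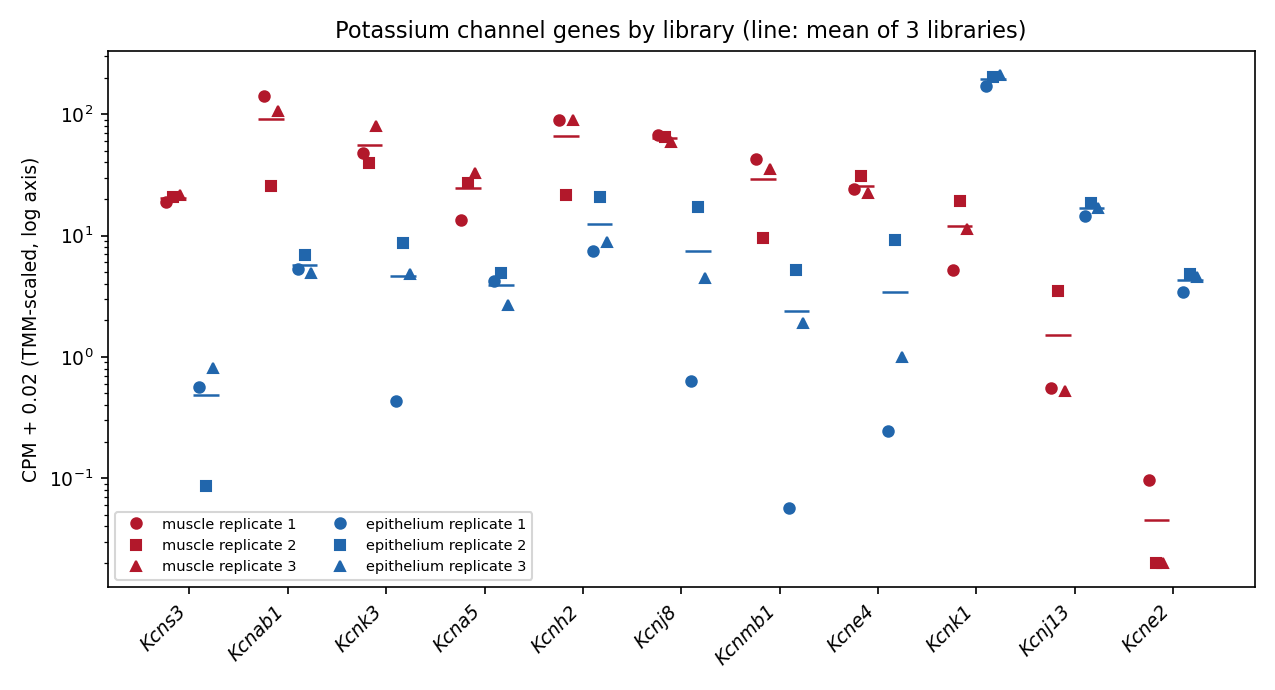
Levels of 11 members in each library in CPM plus 0.02 on a log axis, with muscle in red, epithelium in blue, symbols for replicates 1 to 3 and lines for the means. Kcns3, Kcnj8 and Kcna5 are as high in muscle replicate 2 as in the others, whereas Kcnab1, Kcnh2 and Kcnmb1 are lower there. Epithelium replicate 1 is the lowest epithelial point for Kcnk3, Kcnj8, Kcnmb1 and Kcne4.

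Inward rectifiers pass potassium more easily inward and hold the membrane near rest. Of 15 genes, 14 were tested and 1 was called, Kcnj13 (chr1:87386363-87394729), higher in epithelium, beside 4.11% of all tested genes. Kcnj13 encodes a channel of transporting epithelia such as the retinal pigment epithelium. It measured 0.532, 3.44 and 0.506 CPM in muscle and 14.6, 18.6 and 16.9 CPM in epithelium, so the epithelial values were close together and all above muscle. The log2 fold change was -3.50 ± 0.80 (adjusted p = 0.024), and -4.99 on the later date (adjusted p = 0.0018), and it was past the threshold in 13 of 17 refits. It was lost without muscle replicate 1 (0.053), without epithelium replicate 2 (0.052) or 3 (0.083), and with all 6 libraries scaled by library size only. Kcnj13 lies within Gigyf2 on the opposite strand of chromosome 1 and shares 623 bp of exon with it. Gigyf2 was at 63.0 to 81.5 CPM in all 6 libraries without a difference that passed the test (adjusted p = 0.86), and the library kit does not keep strand in standard use, so reads of the shared stretch cannot be told apart.

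Kcnj8 encodes the pore of the ATP-sensitive channel of vascular muscle and pericytes, which pairs with the sulfonylurea receptor Abcc9. Muscle held 67.4, 65.0 and 59.5 CPM and epithelium 0.613, 17.3 and 4.47 CPM. The muscle libraries were alike and the epithelial ones spread widely, in the same order as their receptor background (replicates 1, 3, 2). The log2 fold change was 3.14 ± 0.90 with an adjusted p of 0.062, so Kcnj8 was not called. On the later date it was 4.62 (adjusted p = 0.022), and it passed in 7 of 17 refits. Without epithelium replicate 1 or 2 its adjusted p was 0.0090 and 0.0064. Abcc9, which lies 16247 bp from Kcnj8 on chromosome 6, had its epithelial libraries in the same order, at 24.5, 49.7 and 31.3 CPM in muscle and 0.669, 10.8 and 5.71 in epithelium (2.64 ± 0.79, adjusted p = 0.071). Abcc8, the sulfonylurea receptor of beta cells and neurons, was at 2.70, 5.59 and 3.56 CPM in muscle and 11.6, 8.42 and 4.84 in epithelium (-1.07 ± 0.61, adjusted p = 0.40). Mural cell markers, 7 genes with Abcc9 among them, summed to 1255 to 1532 CPM in muscle and 141 to 238 in epithelium, and 4 of the 6 tested were called higher in muscle. Rgs5 stood at 36.2 to 82.9 CPM in muscle, while Higd1b was at 0.0758 to 0.152 CPM. The part of mural cells in the Kcnj8 and Abcc9 values was not tested.

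Kcnj2, the classical strong inward rectifier, was at 26.0, 20.2 and 16.5 CPM in muscle and 3.83, 14.6 and 5.75 in epithelium, without overlap (1.38 ± 0.50, adjusted p = 0.13, and 2.07 with adjusted p = 0.024 on the later date). Kcnj14 ranged from 6.02 to 10.5 CPM in muscle and 2.01 to 4.75 in epithelium (1.30 ± 0.65, adjusted p = 0.30). Kcnj15 and Kcnj16, rectifiers of transporting epithelia, reached at most 5.41 and 2.87 CPM in any library (adjusted p = 0.78 and 0.79). Kcnj16 lies 38195 bp from Kcnj2 on chromosome 11, and the 2 neighbours thus stood at different levels in muscle.

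Tandem-pore-domain channels carry background currents and set the resting potential with little dependence on voltage. Among 14 genes, 13 were tested and 1 was called in each direction, beside 6.58% (muscle) and 4.11% (epithelium) of all tested genes. Kcnk1 (chr8:125995170-126030685), a weak background channel found in kidney and other epithelia, measured 5.21, 19.1 and 11.3 CPM in muscle and 171, 203 and 210.0 CPM in epithelium. Its epithelial mean of 195 ± 20.9 CPM (SD, n = 3) compared with 11.9 ± 6.95 CPM in muscle. Muscle over epithelium gave a log2 value of -4.04 ± 0.46 (adjusted p = 9.6e-04), and -4.59 on the later date (adjusted p = 0.0018). Per kilobase of merged exons its epithelial level was 87.2 ± 9.33 CPM, the highest of all members in either tissue, followed in epithelium by Kcnj13 at 13.2 ± 1.61.

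Kcnk3 (chr5:30588170-30625271), an acid-sensitive background channel that helps set the resting potential of vascular muscle, measured 47.6, 39.5 and 79.6 CPM in muscle and 0.409, 8.69 and 4.77 CPM in epithelium. The groups were far apart, and the epithelial values again followed the receptor background. The log2 fold change was 3.63 ± 0.86 (adjusted p = 0.028), and 4.6 on the later date (adjusted p = 0.040). It passed in 9 of 17 refits, and only leaving out epithelium replicate 1 or 2 kept the call among the 6 leave-outs (the other 4 gave 0.063 to 0.15). Kcnk3 shares 229 bp of exon with Gm9899, a non-coding transcript on the opposite strand, which was at 0 to 3.88 CPM.

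Kcnk5, an alkali-activated background channel of epithelia, was at 21.2, 12.3 and 10.2 CPM in muscle and 19.1, 5.01 and 20.1 in epithelium (-0.02 ± 0.52, adjusted p = 0.99), and its sign turned in 6 of 17 refits. Kcnk2, a stretch- and lipid-sensitive channel, was at 0.722, 5.04 and 2.81 CPM in muscle and 8.59, 7.28 and 5.90 in epithelium, without overlap (-1.35 ± 0.81, adjusted p = 0.44). Kcnk16, which lies outside the naming rule and was picked after its values were seen, held 0, 2 and 2 counts in muscle and 149, 57 and 64 in epithelium. All muscle libraries were at or under 3 counts, and the mean epithelial CPM was 26.4 times the mean CPM of 3 counts in muscle. That fold compares means and carries no error, and with an adjusted p of 0.097 Kcnk16 was not called. Epithelium replicate 2, at 3.81 CPM, was under its receptor percentile. Its neighbour Kcnk5, 79566 bp away on chromosome 14, was at 5.01 CPM or more in all 6 libraries, in epithelium replicate 2 under the receptor percentile of 5.55.

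Calcium-activated channels couple a rise in calcium to hyperpolarization. None of the 8 genes of the calcium- or sodium-activated and Slo class was called by edgeR, and none had an unadjusted p under 0.05. Over all tested genes these shares were 10.7% and 21.7%. Kcnma1, the pore of the large-conductance BK channel of smooth muscle, was at 5.70, 17.3 and 15.0 CPM in muscle and 0.967, 18.4 and 8.38 CPM in epithelium. The groups overlapped, each with its highest value in replicate 2 (0.46 ± 0.84, adjusted p = 0.91), and on the later date the log2 fold change was 1.08 (adjusted p = 0.55). Kcnn1, a small-conductance channel gene, was at 4.79 to 13.5 CPM in muscle and 9.43 to 19 in epithelium (-0.50 ± 0.47, adjusted p = 0.74). Kcnn4, the intermediate-conductance channel known from secretory epithelia, reached 2.90 CPM in muscle and 3.14 CPM in epithelium (-0.74 ± 1.91, adjusted p = 0.93).

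Auxiliary subunits change the gating or surface level of the pores. Of 16 genes, 1 was called higher in muscle and 1 in epithelium, beside 6.58% and 4.11% of all tested genes. In 5 every muscle library was above every epithelial one and in 3 below, beside 16.4% and 10.5%. Kcnab1 (chr3:65109384-65378223), a cytoplasmic beta subunit that speeds inactivation of Kv channels, measured 140.1, 25.8 and 106 CPM in muscle and 5.30, 6.95 and 4.88 CPM in epithelium. Muscle replicate 2 was the lowest muscle library and still above every epithelial one. Its log2 fold change was 4.0 ± 0.58 (adjusted p = 0.0027). Kcnab2, the related beta subunit, was at 3.00, 3.89 and 3.84 CPM in muscle and 7.06, 5.28 and 5.78 in epithelium, also without overlap, but with -0.75 ± 0.65 (adjusted p = 0.69).

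Kcnmb1 encodes the beta subunit that raises the calcium sensitivity of BK channels in smooth muscle. It stood at 42.5, 9.49 and 35.2 CPM in muscle and 0.0372, 5.21 and 1.88 CPM in epithelium. The groups did not overlap, but both libraries numbered 2 came close to each other (3.67 ± 1.2, adjusted p = 0.097, and 5.39 with adjusted p = 0.047 on the later date). Its pore partner Kcnma1 was not called in any of the 17 refits, whereas Kcnmb1 passed in 4 of them, and whether their changes differed was not tested. Kcnmb1 lies within Kcnip1 on the opposite strand of chromosome 11 with no shared exon bases. Kcnip1, a calcium-binding partner of Kcnd channels, was at 6.69, 5.94 and 8.54 CPM in muscle and 1.80, 3.07 and 0.977 in epithelium (1.86 ± 0.77, adjusted p = 0.19). Kcnip4, of the same family, was at 6.61 to 14.1 and 5.58 to 11.9 CPM (0.19 ± 0.46, adjusted p = 0.93), with 168 bp of exon shared with a gene on the opposite strand.

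Of the 5 single-pass KCNE subunits 1 was called, beside 10.7% of all tested genes. Kcne2 (chr16:92292389-92298129), known from gastric and choroid plexus epithelium, held 2, 0 and 0 counts in muscle and 183, 72 and 121 in epithelium, which is 3.40, 4.81 and 4.54 CPM. All muscle libraries were at or under 3 counts, and the mean epithelial CPM was 37.6 times the mean CPM of 3 counts in muscle. That fold compares means and carries no error. The adjusted p of the edgeR test was 0.043. Leaving out a library took the call away in 5 of 6 refits, and so did limma-voom (0.063). DESeq2 gave no adjusted p for it, and it passed in 9 of the 16 refits that gave one.
Kcne4, a subunit that inhibits several Kv channels, was at 24.1, 30.8 and 22.4 CPM in muscle and 0.223, 9.09 and 0.977 CPM in epithelium (2.95 ± 1.07, adjusted p = 0.13). Without epithelium replicate 2 the log2 fold change was 5.50 (adjusted p = 0.0012), and the later date gave 5.27 (adjusted p = 0.0086). Kcne4 passed in 6 of 17 refits, among them DESeq2 (0.047) and limma-voom (0.0033) on all 6 libraries. This is the gene whose printed window holds both matches to TCAAAG.
Kcne1l, the X-linked member, was at 96.5, 44.1 and 67.1 CPM in muscle and 23.7, 9.49 and 2.18 in epithelium (2.54 ± 0.71, adjusted p = 0.055). Here epithelium replicate 1 was the highest epithelial library, and without it the adjusted p was 0.0091. Kcne3, a partner of Kcnq1 in intestinal and airway epithelium, was at 0.0760 to 2.45 CPM in muscle and 1.06 to 2.47 in epithelium (adjusted p = 0.91).

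Per kilobase of merged exons, the scale on which genes can be set side by side, Kcne1l led in muscle at 44.9 ± 17.04 CPM (SD, n = 3), followed by Kcnab1 at 27.9 ± 18.1, Kcnj8 at 25.1 ± 1.58, Kcnk3 at 14.6 ± 5.56 and Kcnh2 at 14.3 ± 8.36. Kcne4 (9.69), Kcna5 (8.53), Kcnmb1 (6.94) and Kcns3 (6.40) were lower on this scale. The libraries of Kcne1l and Kcnab1 overlapped, as did those of Kcnab1 and Kcnj8 and those of Kcnk3 and Kcnh2. In epithelium Kcnk1 and Kcnj13 stood first and did not overlap, and Kcne1l at 7.63 ± 7.08 overlapped both Kcnj13 and Kcnmb4 at 6.71 ± 3.57. Per kilobase of coding sequence, Kcne1l stood above Kcnj13 in epithelium (27.5 against 15.5 CPM), so the order below Kcnk1 depends on the length used. Of the 1270 exon bases of Kcnj13, 623 are shared with Gigyf2. In muscle, Kcnmb1 at 50.7 and Kcne4 at 50.5 CPM per coding kilobase were level with Kcnj8 at 50.3. They stood above Kcnk3 at 45.3 and Kcnh2 at 19.1, so the muscle order below Kcnab1 also depends on the length used.

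**Figure D3:**
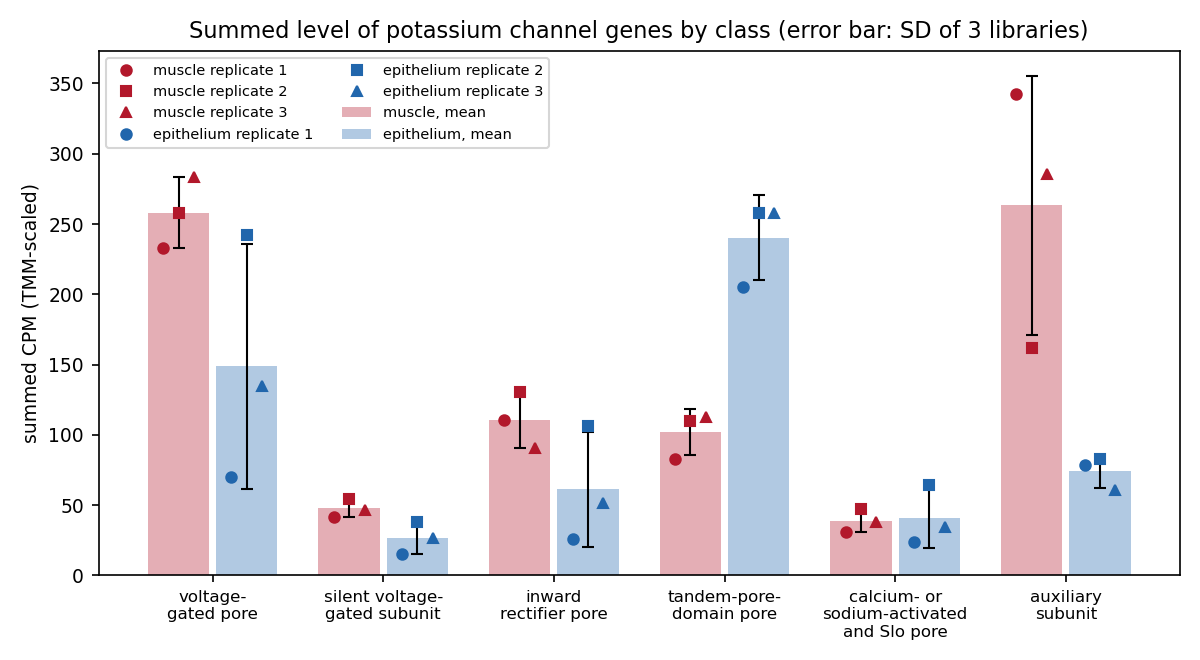
Summed CPM of the potassium channel genes of each class, as means of 3 libraries (bars from 0), SD (error bars) and single libraries (points), muscle in red and epithelium in blue. Auxiliary and silent subunits are higher in every muscle library, and tandem-pore-domain genes in every epithelial library. Epithelium replicate 2 is the highest epithelial library in every class but the tandem-pore-domain genes.

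Summed by class, the tissues were most unlike in tandem-pore-domain and auxiliary genes. Tandem-pore-domain genes summed to 102 ± 16.4 CPM in muscle and 240.2 ± 30.3 in epithelium (SD, n = 3), the latter mostly Kcnk1. They made up 12.5% ± 2.35 of the summed level of protein-coding members in muscle and 42.4% ± 8.69 in epithelium, and per kilobase of exon 12.2% and 51.4%. Auxiliary genes summed to 263 ± 92.2 CPM in muscle and 74.0 ± 11.8 in epithelium, 31.7% ± 9.79 and 13.3% ± 4.72 of the sum. Per kilobase of exon the auxiliary share was 43.5% and 17.4%, and per kilobase of coding sequence 54.2% and 24.4%. Voltage-gated pore genes summed to 258 ± 25.2 and 149 ± 87.0 CPM, inward rectifiers to 111 ± 20.1 and 61.2 ± 40.9, silent subunits to 47.6 ± 6.24 and 26.4 ± 11.3, and the calcium- or sodium-activated class to 38.7 ± 8.22 and 40.7 ± 21.1. Epithelial sums of these 4 classes were in the order of the receptor background, from replicate 1 over 3 to 2, and the part of that background was not tested. All protein-coding members together summed to 820.3 ± 51.3 CPM in muscle and 591 ± 187 in epithelium, ranges that came within reach of each other through epithelium replicate 2 at 790.5 CPM, above muscle replicate 2 at 761.8. Long non-coding Kcnq1ot1, which lies antisense to Kcnq1 and silences imprinted genes on the paternal chromosome 7, was at 129, 126 and 187 CPM in muscle and 83.5, 129 and 126 in epithelium (0.39 ± 0.27, adjusted p = 0.56).

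Of the 96 members, 28 were at 1 CPM or more in every library, 19 in every muscle library only, 10 in every epithelial library only, and 39 in neither. Above the 99th percentile of the receptor genes of the same library, these numbers were 23, 28, 3 and 42. Kcne2 fell in the last class, since that percentile was 5.55 CPM in epithelium replicate 2 while Kcne2 was at 4.81. This cutoff differed between libraries, and no muscle library had one above 3.25 CPM. The numbers 28 and 3 therefore do not compare levels between the tissues. The 28 held Kcns3 and Kcna5, called higher in muscle, but also Kcnab2, whose epithelial libraries all lay above muscle. The 39 members included 4 of the 8 Kcnh genes, and being in neither class does not mean low in every library. Kcna10, Kcnj1, Kcnk12 and Kcnmb4os1 had too few counts to be tested.

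In muscle replicate 2 some potassium channel genes were lower and some higher than in the other muscle libraries. Its 12 contractile markers were at 0.127 to 0.445 times the mean of muscle replicates 1 and 3 (median 0.20). The 32 members examined, each at a mean of 5 CPM or more in muscle, had a median of 0.92, and 5 were under 0.5 times: Kcng1 at 0.19, Kcnab1 at 0.21, Kcnh2 and Kcnmb1 at 0.24 and Kcnn1 at 0.41. Kcns3 at 1.02, Kcnj8 at 1.02, Kcnj2 at 0.95, Kcna5 at 1.16 and Kcne4 at 1.32 were near or above the level of the others in that library, and the 7 mural markers were at 0.738 to 1.78. Kcna1, Kcnk6 and Kcnn3 met the 5 CPM minimum only through replicate 2, so their high ratios there were fixed by the filter. This is 1 library, so the ratios carry no replicate error, and the library also had the fewest total counts and most receptor counts of the muscle group.

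**Figure D4:**
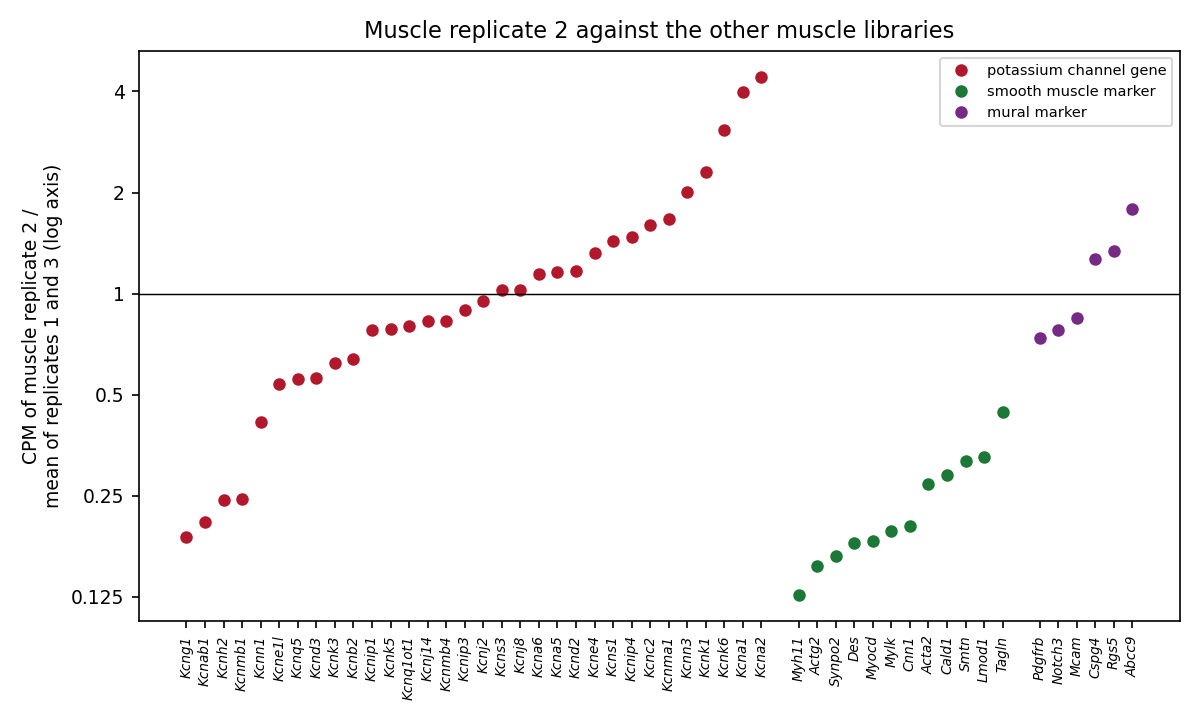
CPM of muscle replicate 2 divided by the mean of muscle replicates 1 and 3 (log axis) for 32 members at 5 CPM or more in muscle, 12 smooth muscle markers and 6 mural markers, each sorted by ratio. All smooth muscle markers lie under 0.5 together with 5 members, while Kcns3 and Kcnj8 lie at 1.02; Higd1b, under 1 CPM in all libraries, is left out.

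Proteins that work with potassium channels but carry other names were examined as a list of 17 genes. Of the 14 tested, edgeR called 0, and 4 had an unadjusted p under 0.05 (Abcc9, Amigo1, Tmem38a and Tmem38b), while DESeq2 called 3 and limma-voom 1. Over all tested genes, 21.7% had an unadjusted p under 0.05, DESeq2 called 18.3% and limma-voom 12.8%. Their median log2 fold change was -0.28, beside -0.10 over all genes. Tmem38a, a potassium channel of the sarcoplasmic reticulum that balances calcium release, was at 73.5, 43.5 and 69.7 CPM in muscle and 36.7, 18.4 and 37.5 in epithelium (1.01 ± 0.34, adjusted p = 0.10). Its values in muscle lay above all epithelial ones. Tmem38b was at 22.5, 25.9 and 21.6 CPM in muscle and 15.0, 14.4 and 16.1 in epithelium (0.62 ± 0.24, adjusted p = 0.16). Amigo1, a membrane partner of delayed rectifiers, was at 1.67 to 2.70 CPM in muscle and 3.79 to 10.3 in epithelium (-1.70 ± 0.73, adjusted p = 0.21). The hyperpolarization-activated Hcn genes had no call, and Hcn3 was the highest of them at 5.99 to 14.5 CPM in muscle and 4.41 to 7.31 in epithelium (adjusted p = 0.74). BK gamma subunit genes were low, and Lrrc26 had 0 counts in all muscle libraries and 0, 16 and 15 in epithelium. A count of 0 allows up to 0.114, 0.150 and 0.0758 CPM in muscle replicates 1 to 3, counting error only.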

How the data were processed

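RNA was measured in 6 libraries sorted from mouse trachea, 3 of muscle and 3 of epithelium, grouped by their titles. The authors deposited whole-number counts per gene symbol. The submitters' processing notes name Trim Galore, Bowtie2, Cufflinks, DESeq and the build mm10, with no role or version; the counting program and annotation are not given in the sources used here. Libraries were made with SMART-Seq v4 and Nextera XT, per the labels' protocols, without molecular identifiers, so counts include PCR copies. Of counts from 1 to 19, 73.8% to 79.6% per library were even. All 6 value columns were used and 0 were left out.

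Counts were analysed in R 4.3.3 with edgeR 4.0.16 (filterByExpr, TMM, robust quasi-likelihood fit, two-sided, without covariates). P-values were adjusted by the Benjamini-Hochberg method across the tested genes, and 0.05 was the threshold. Alternatives were DESeq2 1.42.0, limma 3.58.1 (voom), other scalings, filters, covariates and left-out libraries. An exact permutation test of 3 against 3 libraries cannot fall under 0.10, so p-values come from the fit over all genes. On simulated counts (17213 genes) the test recovered 80 of 100 genes changed by a log2 of 2 and 98 of 100 changed by 4, with 9 false calls. Changed genes were drawn only from those at a mean of 5 CPM or more, with a spread set by level. Differences in receptor background between libraries were not simulated. These numbers therefore do not give the recovery for members at lower levels or with uneven libraries. Positions and lengths are from GENCODE (vM21 in GRCm38), promoter sequences from RefSeq. The CArG box was searched on both strands as CCWWWWWWGG, where W stands for A or T. The floor of a gene in a library was 3 counts, and folds against a group at the floor use 3 counts per library. Floors cover counting error only.

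Named were members that were called, the highest member of each subgroup if at 5 CPM in a group, members at 5 CPM without overlap between groups, and genes with a known place in smooth muscle or airway epithelium; 2 members are not reported here, though counts and sums include them. Members and lists were chosen with earlier results of these data known.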

Additional observations from a re-analysis of the deposited data

How the results depend on the processing

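Kcns3, Kcnab1, Kcna5 and Kcnk1 kept their direction and stayed past the threshold in all 17 refits. The number of members called higher in muscle, 6, was 3 when libraries were scaled by size only, 11 on the later date, 13 with limma-voom, 11 with DESeq2, 3 at an adjusted p under 0.01 and 3 to 10 when a library was left out (3 without muscle replicate 1 or 3 or epithelium replicate 3, and 10 without epithelium replicate 2). The share of all genes called higher in muscle, 6.58%, moved too, to 5.37% with size only, 10.7% on the later date, 8.22% with limma-voom, 10.1% with DESeq2, 2.99% at an adjusted p under 0.01 and 2.82% to 8.25% when a library was left out. The number higher in epithelium, 3, was 1 at an adjusted p under 0.01 and 1 to 4 when a library was left out, beside 4.11%, 2.09% and 2.50% to 4.58% of all genes. Partner genes called higher in muscle, 0, were 2 with the date as a term and 2 with the receptor counts as a covariate. The share of all genes called higher in muscle was 10.6% and 8.99% in these fits. Partner calls in muscle were 1 on the later date, 1 with limma-voom, 2 with DESeq2 and 0 to 1 when a library was left out. With DESeq2, 1 partner gene was higher in epithelium, beside 8.18% of all genes. The cause was not tested.

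The replicate numbers did not pair all libraries. Deviations from the group means correlated at 0.57, 0.66 and -0.42 for the libraries numbered 1, 2 and 3 over 19375 genes. Over 4123 genes with high levels these correlations were only 0.18, 0.16 and -0.18. The libraries numbered 1 and 2 are therefore not shown to be matched pairs. With the replicate number as a block, 3 members and 1 partner gene were called higher in muscle, beside 8.27% of all genes. The log2 fold change of Kcnk5 was 0.14 in that fit. Kcnh2, Kcnk3 and Kcne2 were not past the threshold there.

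The log2 fold changes of 4 reported genes, none of them called, turned sign. When a library was left out, Kcnip4 ranged from -0.070 to 0.47, Kcnk5 from -0.48 to 0.22, Kcnma1 from -0.055 to 1.49 and Kcnq1 from -1.50 to 0.13. Kcnip4 was at -0.055 with library size only, and Kcnk5 at 0.19 with the date as a term.

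The median log2 fold change of all genes was -0.33 with library size only and -0.20 with the RLE scaling, beside -0.10. Levels per protein length were not run, as no protein table was used here, and exon lengths were used in their place, chosen after seeing the data, as was the receptor percentile. Values under the receptor percentile of a library are not read as expression.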
